A study of Mus musculus with 12 samples.

Results

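The 9 genes described here carry, make and sense retinoic acid: the cellular retinoic acid binding proteins Crabp1 and Crabp2, the retinaldehyde dehydrogenases Aldh1a1, Aldh1a2, Aldh1a3 and Aldh1a7, and the retinoic acid receptors Rara, Rarb and Rarg. They were taken by symbol from the 25117 gene symbols measured, and all 9 were found. Crabp1 and Aldh1a7 were chosen for the size of their difference between KO and wildtype fibroblasts in full medium, and the families around them with that difference known. The values of that comparison are therefore given as a description, without a test, and Crabp1 and Aldh1a7 are given without a p-value throughout. The study sequenced poly(A) RNA of mouse embryonic fibroblasts (MEFs, cells grown out of the embryo) in 12 libraries, 3 for each of 4 groups. The groups are labelled KO in EBSS, labelled wildtype in EBSS, KO in full medium and wildtype in full medium. All of the cells carried the alleles Rbbp5 (flox/flox) and Rosa26 CRE (+/+), so the recombinase was present in the wildtype groups too. Tamoxifen, used to switch on a recombinase that responds to it, was given for 7 days to the KO cells only, and the effects of tamoxifen, of recombinase activity and of the loss of Rbbp5 cannot be told apart. Cells then spent 16 hours in full medium, which is DMEM with 10% fetal bovine serum, or in EBSS, a salt and glucose solution without amino acids or serum. Rbbp5 encodes a core subunit of the complexes that methylate histone H3 at promoters and enhancers. The sample titles mark the 3 libraries of a group as brep, presumably for biological replicate. Whether they came from separate cultures is not stated. The p-values therefore measure the spread between these libraries, which may not include that between cultures.

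Retinol is carried into the cell, oxidised to retinaldehyde by retinol dehydrogenases and then to retinoic acid by the retinaldehyde dehydrogenases. Binding proteins of the CRABP family hold the acid in the cytoplasm, handing it to the degrading CYP26 enzymes or to the nucleus, where the receptors pair with retinoid X receptors on DNA and switch target genes. In embryonic mesenchyme this pathway sets regional identity and guides the formation of limbs, face and skeleton.

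Before the results, some libraries went against or apart from their labels. In full medium Rbbp5 had 7.47, 9.34 and 8.31 TPM (the deposited unit, a transcript level scaled for transcript length and library total) in KO cells, against 26.2, 25.7 and 26.2 TPM in wildtype cells. In EBSS the order was the other way round, with 31.9, 24.6 and 23.0 TPM in the libraries labelled KO, against 12.4, 14.0 and 11.8 TPM in the libraries labelled wildtype. The EBSS libraries are therefore called labelled KO and labelled wildtype throughout. Within each label Rbbp5 also differed between EBSS and full medium. Its log2 change was 1.54 in libraries labelled KO (limma adjusted p = 3.5e-06) and -0.98 in libraries labelled wildtype (limma adjusted p = 3.3e-05). In every comparison between media below, effects of the medium and of the Rbbp5 level therefore cannot be told apart. The correlation of log2(TPM + 1) over tested genes was 0.968 to 0.994 between labelled KO EBSS and wildtype full medium libraries, across genes, which are not independent replicates. The 3 labelled wildtype EBSS libraries had 30.2% to 32.2% of their TPM in ribosomal protein genes, against 13.7% to 17.2% in the other 9 libraries, and 190 to 1122 tested genes listed at 0, against 12 to 130. Within EBSS, labelled wildtype replicate 3 (1122 genes at 0) and labelled KO replicate 1 stood apart from their groups. Of 14 fibroblast markers, all were detected in every group. Their summed level was 6437 to 9762 TPM in labelled KO EBSS, 5044 to 5956 TPM in labelled wildtype EBSS, 6677 to 7361 TPM in KO full medium and 9619 to 9905 TPM in wildtype full medium libraries.

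Aldh1a1 and Aldh1a7 are near copies of one another, and their sequences are shown because they bear on how well the deposited levels can separate them. They lie 49488 bases apart on opposite strands of chromosome 19, with 0 annotated genes between them: Aldh1a1 spans 20492715 to 20643465 on the plus strand and Aldh1a7 spans 20692953 to 20727562 on the minus strand (GRCm38, GENCODE vM21). Their open reading frames are 1506 bases each, differ at 126 bases (91.6% identity) and share an identical run of up to 100 bases. Of all stretches of 31 bases in the Aldh1a7 transcript, 13.8% also occur in Aldh1a1 transcripts, and 5.70% of those of Aldh1a1 occur in Aldh1a7, so reads from these stretches could be assigned to either gene. The first 150 bases of the 2 reading frames, from the GENCODE vM21 transcripts, are given with the 10 differing bases in capitals.
Aldh1a1: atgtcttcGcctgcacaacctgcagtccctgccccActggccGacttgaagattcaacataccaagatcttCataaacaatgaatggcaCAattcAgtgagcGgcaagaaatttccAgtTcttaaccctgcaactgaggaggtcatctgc
Aldh1a7: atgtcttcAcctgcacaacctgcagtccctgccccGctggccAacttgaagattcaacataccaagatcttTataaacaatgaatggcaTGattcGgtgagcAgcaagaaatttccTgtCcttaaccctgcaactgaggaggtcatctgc
The likeness extends to 1 of the 2 start sites that RefSeq lists for Aldh1a1. RefSeq promoters (GRCm38.p6) run from 250 bases before to 50 after a start. The first Aldh1a1 promoter, at chr19:20492333-20492632, lies before the gene span given above, holds 3 CpG dinucleotides and shares 0 bases in identical runs of at least 15 with the Aldh1a7 promoter. The second lies inside that span. The promoters at chr19:20601718-20602017 on the plus strand for this second start of Aldh1a1 and chr19:20727507-20727806 on the minus strand for Aldh1a7 share 112 of 300 bases in 3 identical runs of at least 15 bases, printed in capitals, the longest of 65.
Aldh1a1 second promoter: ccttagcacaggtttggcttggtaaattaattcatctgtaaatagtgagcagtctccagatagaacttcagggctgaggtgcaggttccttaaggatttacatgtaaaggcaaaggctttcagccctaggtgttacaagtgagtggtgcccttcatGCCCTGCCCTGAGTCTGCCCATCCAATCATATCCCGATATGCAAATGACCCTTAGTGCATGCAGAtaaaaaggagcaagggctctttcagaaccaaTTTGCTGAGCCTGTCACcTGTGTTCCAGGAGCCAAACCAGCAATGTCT
Aldh1a7 promoter: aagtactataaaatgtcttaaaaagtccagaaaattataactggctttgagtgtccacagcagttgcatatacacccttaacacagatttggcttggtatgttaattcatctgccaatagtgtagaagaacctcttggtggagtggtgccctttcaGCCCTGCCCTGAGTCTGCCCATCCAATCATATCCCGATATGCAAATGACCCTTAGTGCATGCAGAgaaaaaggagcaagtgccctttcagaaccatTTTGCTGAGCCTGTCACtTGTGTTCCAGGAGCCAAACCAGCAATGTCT
These promoters held 1 CpG dinucleotide each and were not CpG-rich, defined as at least 50% G and C with a ratio of observed to expected CpG of at least 0.6, which 33.5% of 32851 RefSeq promoters were.

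The Crabp1 and Rarb promoters are shown because Crabp1 differed most between the groups and because Rarb is itself a known target of retinoic acid through an element in its promoter. The Crabp1 promoter at chr9:54764498-54764797 (plus strand, GRCm38.p6) held 17 CpG dinucleotides, in capitals, with 65.0% G and C and a ratio of 0.543, just under the CpG-rich limit.
Crabp1 promoter: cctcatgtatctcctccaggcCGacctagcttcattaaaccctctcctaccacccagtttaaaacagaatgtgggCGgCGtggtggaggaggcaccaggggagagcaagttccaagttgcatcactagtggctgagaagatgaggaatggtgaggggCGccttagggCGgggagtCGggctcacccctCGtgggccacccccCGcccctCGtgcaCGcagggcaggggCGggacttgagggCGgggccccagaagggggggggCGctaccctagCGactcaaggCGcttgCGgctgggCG
The Rarb promoter at chr14:16575427-16575726 (minus strand) holds a direct repeat of receptor binding hexamers with a spacing of 5 bases, in capitals, that begins 53 bases before the start.
Rarb promoter: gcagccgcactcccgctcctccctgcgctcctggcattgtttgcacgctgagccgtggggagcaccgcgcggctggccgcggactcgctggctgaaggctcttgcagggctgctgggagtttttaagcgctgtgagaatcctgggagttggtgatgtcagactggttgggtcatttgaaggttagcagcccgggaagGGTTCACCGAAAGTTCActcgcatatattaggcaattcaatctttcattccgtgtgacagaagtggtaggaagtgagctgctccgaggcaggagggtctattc
The hexamers searched were AGGTCA as the first form, AGTTCA as the second form, GGGTCA as the third form and GGTTCA as the last form, taken as direct repeats with a spacing of 1, 2 or 5 bases on both strands. A repeat with a spacing of 5 was found in 32 of 32851 promoters (0.0974%). Among the 12 promoters of the 7 genes with an entry, the Rarb promoter was the one with a match. Crabp2 and Aldh1a3 had no promoter sequence shown.

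In full medium KO cells had almost no Crabp1 RNA and more Crabp2 RNA than wildtype cells, and the larger part of the family was Crabp2 in KO cells and Crabp1 in wildtype cells. Crabp1, a binding protein thought to hold retinoic acid in the cytoplasm and steer it to breakdown, had 0.661, 0.541 and 0.282 TPM in KO cells, against 166, 196 and 159 TPM in wildtype cells. The groups were far apart, and the mean was 351-fold lower in KO cells, with a log2 change of -6.87 (SE 0.15). Crabp2, which delivers retinoic acid to the receptors in the nucleus, had 95.3, 124 and 90.4 TPM in KO cells, against 36.7, 31.7 and 32.5 TPM in wildtype cells. Every KO library was above every wildtype library, the mean was 3.07-fold higher, and the log2 change was 1.58 (SE 0.12). The summed level of both genes averaged 104 ± 18.1 TPM in KO cells and 207 ± 18.6 TPM in wildtype cells (SD, n = 3 each). Crabp1 made up 0.311% to 0.689% of that sum in KO cells and 81.9% to 86.1% in wildtype cells. In bulk RNA, fewer cells that express a gene and less of its RNA per cell cannot be told apart.

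In EBSS the same 2 genes stood the other way round relative to the labels. Crabp1 had 213, 227 and 240 TPM in labelled KO libraries, against 3.42, 2.50 and 3.86 TPM in labelled wildtype libraries, and its log2 change was 5.75 (SE 0.15). Crabp2 had 24.6, 21.7 and 27.0 TPM in labelled KO libraries, against 102, 102 and 95.3 TPM in labelled wildtype libraries. Neither gene overlapped between the groups. Crabp2 fell, with a log2 change of -1.99 (SE 0.12, limma adjusted p = 9.9e-08), while the median of all tested genes in this comparison was 0.91. Crabp1 made up 89.7% to 91.3% of the family in labelled KO EBSS libraries and 2.40% to 3.89% in labelled wildtype EBSS libraries, which the plot of family shares shows beside the full medium groups.

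**Figure D1:**
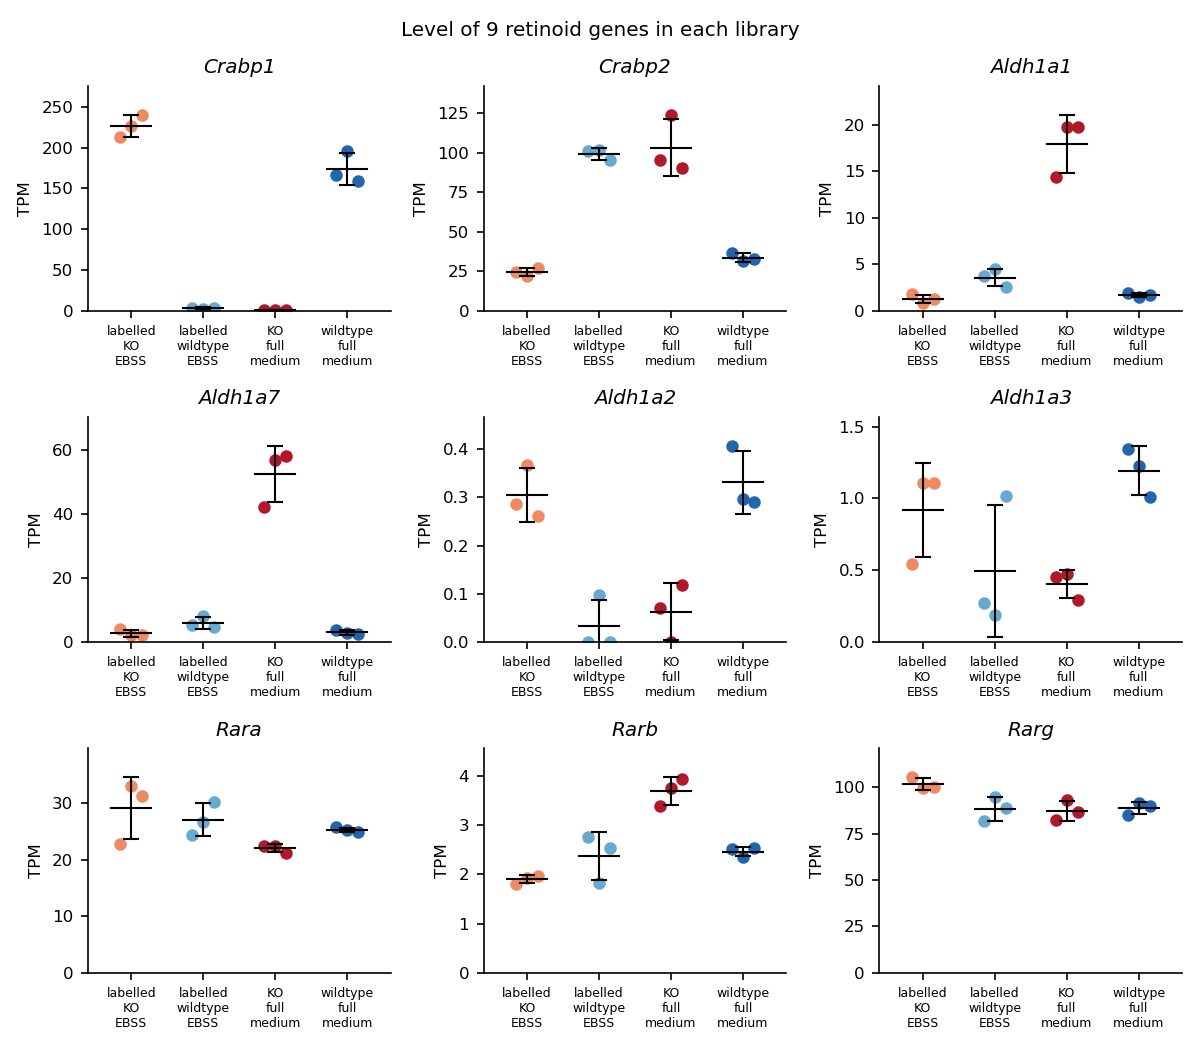
TPM of the 9 genes (y axes, linear, from 0) in the 3 libraries of each of the 4 groups (x axes). Points are libraries, and lines and bars are the mean and SD over n = 3. Crabp1 lies between 159 and 240 TPM in labelled KO EBSS and wildtype full medium libraries and under 4 TPM in the other 6, Aldh1a1 and Aldh1a7 are highest in KO full medium libraries, and Rarg is the highest receptor in every library.

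Between media, both binding proteins moved in opposite directions in the 2 genotype labels. In the libraries labelled KO, Crabp1 averaged 226 ± 13.1 TPM in EBSS and 0.495 ± 0.194 TPM in full medium, and Crabp2 averaged 24.4 ± 2.64 TPM in EBSS and 103 ± 18.0 TPM in full medium (SD, n = 3 each). Crabp2 fell there by 2.03 on the log2 scale (SE 0.12, limma adjusted p = 3.4e-07), and the log2 change of Crabp1 was 7.26 (SE 0.15). In the libraries labelled wildtype, Crabp1 averaged 3.26 ± 0.692 TPM in EBSS and 174 ± 19.7 TPM in full medium, a log2 change of -5.37 (SE 0.15). Crabp2 averaged 99.4 ± 3.63 TPM in EBSS and 33.6 ± 2.67 TPM in full medium there and rose, with a log2 change of 1.54 (SE 0.12, limma adjusted p = 5.0e-07). These comparisons share libraries with the genotype comparisons and with the rule that chose Crabp1, and so are not separate evidence. When labelled wildtype EBSS was set against KO full medium, Crabp2 differed by -0.04 (SE 0.12, 95% interval -0.31 to 0.23, limma adjusted p = 0.78), and by 0.78 after scaling by median of ratios, a correction for shifts of all genes (adjusted p = 0.000227). Crabp1 remained low in both, at 2.50 to 3.86 TPM in labelled wildtype EBSS libraries and 0.282 to 0.661 TPM in KO full medium libraries, without overlap.

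**Figure D2:**
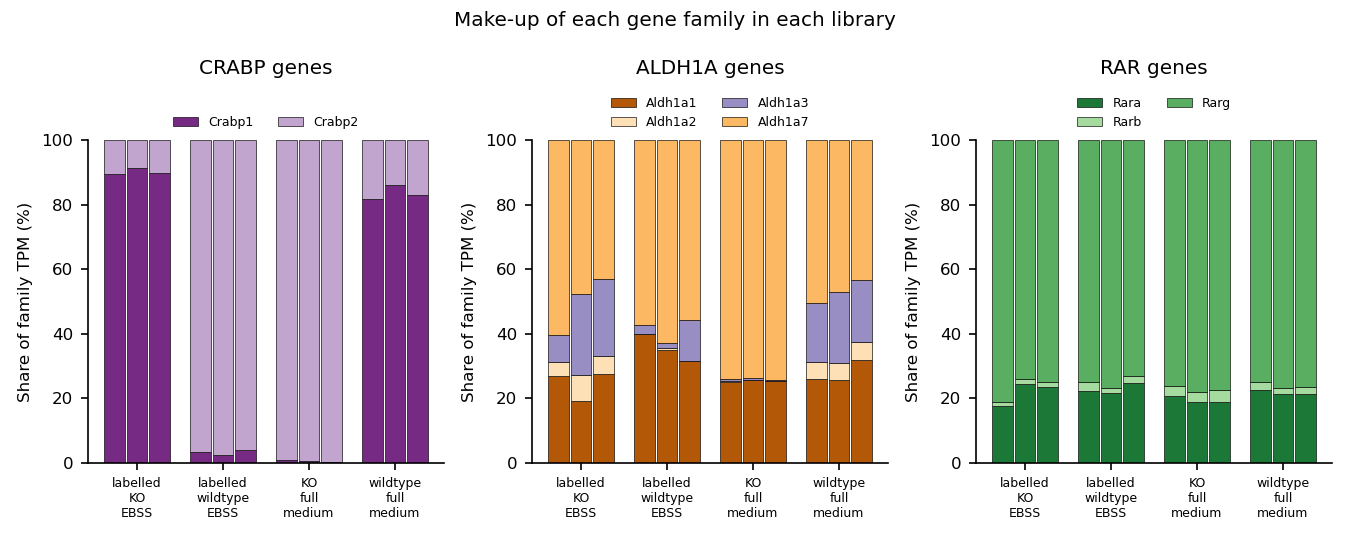
Share of each family's summed TPM (y axes, %) taken by each member in the 12 libraries (bars, 3 per group, from replicate 1 to replicate 3). Crabp1 takes over 81% of the CRABP sum in labelled KO EBSS and wildtype full medium libraries and under 4% in the others, Aldh1a7 takes 73.8% to 74.3% of the ALDH1A sum in KO full medium libraries, and Rarg takes 73.1% to 81.1% of the RAR sum in all 12.

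Among the enzymes, the neighbouring pair Aldh1a1 and Aldh1a7 was high in KO cells in full medium and low in the other 3 groups. Aldh1a1, a cytosolic enzyme that makes retinoic acid from retinaldehyde, had 14.4, 19.7 and 19.7 TPM in KO cells, against 1.94, 1.43 and 1.67 TPM in wildtype cells. Aldh1a7, a rodent copy of Aldh1a1 that has little activity on retinaldehyde, had 42.3, 56.8 and 58.2 TPM in KO cells, against 3.78, 2.62 and 2.29 TPM in wildtype cells. Neither gene overlapped between the groups, and replicate 1 was the lowest KO library for both. The mean was 10.7-fold higher for Aldh1a1 (log2 change 2.81, SE 0.20) and 18.1-fold higher for Aldh1a7 (log2 change 3.78, SE 0.25). The ratio of Aldh1a7 to Aldh1a1 TPM was 2.94, 2.88 and 2.95 in KO libraries, against 1.95, 1.83 and 1.37 in wildtype libraries, so the 2 levels did not keep 1 ratio across the groups. Since the genes share sequence, their values are not independent of each other, and the part of shared reads in either level was not tested.

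In EBSS the pair was lower in labelled KO libraries than in labelled wildtype libraries, at levels far under those of KO cells in full medium. Aldh1a1 had 1.75, 0.840 and 1.28 TPM in labelled KO libraries, against 3.69, 4.47 and 2.56 TPM in labelled wildtype libraries. It fell, with a log2 change of -0.995 (SE 0.20, limma adjusted p = 0.000818). Aldh1a7 had 3.91, 2.10 and 1.99 TPM in labelled KO libraries, against 5.31, 8.05 and 4.53 TPM in labelled wildtype libraries, a log2 change of -0.93 (SE 0.25). The groups did not overlap for either gene, and labelled wildtype replicate 3 was the lowest of its group for both. That library also had a summed level of 6 liver markers of 107.5 TPM, mainly Alb at 75.5 TPM, against 5.31 and 5.85 TPM in the other labelled wildtype EBSS libraries and 0.851 to 2.42 TPM in labelled KO EBSS libraries. Aldh1a1 is abundant in liver. In full medium the liver markers summed to 3.44 to 7.87 TPM in KO libraries, against 0.655 to 0.922 TPM in wildtype libraries, and the part of liver RNA in the Aldh1a1 levels of either medium was not tested.

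Between media, the pair was lower in EBSS in libraries labelled KO and higher in EBSS in libraries labelled wildtype. Since Rbbp5 differed between media within each label too, these differences cannot be assigned to the medium. Among libraries labelled KO, Aldh1a1 averaged 1.29 ± 0.455 TPM in EBSS and 18.0 ± 3.08 TPM in full medium, a log2 change of -3.05 (SE 0.20, limma adjusted p = 6.2e-07). Aldh1a7 averaged 2.67 ± 1.08 TPM in EBSS and 52.5 ± 8.80 TPM in full medium there, a log2 change of -3.89 (SE 0.25). Among libraries labelled wildtype, Aldh1a1 averaged 3.57 ± 0.965 TPM in EBSS and 1.68 ± 0.252 TPM in full medium and rose, with a log2 change of 0.75 (SE 0.20, limma adjusted p = 0.0051). Aldh1a7 averaged 5.96 ± 1.85 TPM in EBSS and 2.89 ± 0.785 TPM in full medium there, a log2 change of 0.82 (SE 0.25). Against KO full medium, labelled wildtype EBSS libraries were lower in Aldh1a1 (log2 change -2.06, SE 0.20, limma adjusted p = 3.3e-06), unlike Crabp2, whose levels overlapped in that comparison. All of these comparisons reuse full medium libraries on which the members were chosen. Their p-values are therefore not separate evidence, and the same holds for the other members between media.

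The other 2 retinaldehyde dehydrogenases were at or near the lower end of what was measured. Aldh1a2, the main enzyme of retinoic acid synthesis in early embryonic mesoderm, reached at most 0.406 TPM in any library and was under 1 TPM in all 12, so it was not tested. It had 0.0691, 0 and 0.118 TPM in KO cells, against 0.406, 0.297 and 0.291 TPM in wildtype cells. In EBSS it had 0.286, 0.368 and 0.260 TPM in labelled KO libraries, against 0, 0.0963 and 0 TPM in labelled wildtype libraries. The groups did not overlap in either medium, but no depth is known, so what a listed 0 allows cannot be given. Aldh1a3, which makes retinoic acid mainly in epithelia and sense organs, had 0.451, 0.470 and 0.289 TPM in KO cells, against 1.34, 1.23 and 1.01 TPM in wildtype cells, a log2 change of -0.64 (SE 0.20) with no overlap. In EBSS it had 0.543, 1.11 and 1.11 TPM in labelled KO libraries, against 0.270, 0.188 and 1.02 TPM in labelled wildtype libraries, which overlap. The log2 change in EBSS was 0.39 (SE 0.20, limma adjusted p = 0.096), and without the outlying labelled wildtype replicate 3 it was 0.63 (adjusted p = 0.00231) and without labelled KO replicate 1 it was 0.54 (adjusted p = 0.033).

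For Aldh1a3 between media, the 2 genotype labels gave changes of opposite sign. Among libraries labelled KO it averaged 0.921 ± 0.328 TPM in EBSS and 0.404 ± 0.0993 TPM in full medium, a log2 change of 0.44 (SE 0.20, limma adjusted p = 0.089). This passed the threshold without labelled wildtype EBSS replicate 3 (adjusted p = 0.013) and without labelled KO EBSS replicate 1 (0.59, adjusted p = 0.033). In the libraries labelled wildtype it averaged 0.493 ± 0.459 TPM in EBSS and 1.20 ± 0.169 TPM in full medium and fell, with a log2 change of -0.60 (SE 0.20, limma adjusted p = 0.018). Relative to the median of all genes in that comparison, -0.94, the change of Aldh1a3 was 0.34. The call was lost with median-of-ratios scaling (-0.20, adjusted p = 0.48), and without wildtype full medium replicate 1 (-0.55, adjusted p = 0.057) or labelled wildtype EBSS replicate 1 (-0.50, adjusted p = 0.065) or 2 (-0.45, adjusted p = 0.074).

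The make-up of the enzyme family followed these levels. The 4 genes summed to 70.9 ± 11.8 TPM in KO cells and 6.10 ± 1.19 TPM in wildtype cells in full medium, and in EBSS to 5.18 ± 1.13 TPM in libraries labelled KO and 10.1 ± 2.45 TPM in libraries labelled wildtype (SD, n = 3 each). Aldh1a7 took 73.8% to 74.3% of the sum in KO cells and 43.5% to 50.6% in wildtype cells. Aldh1a3 took 0.369% to 0.788% in KO cells and 18.0% to 22.1% in wildtype cells, with higher Aldh1a7 and Aldh1a1 levels and a lower Aldh1a3 level in KO cells.

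The 3 receptors, the transcription factors through which retinoic acid acts, had log2 changes between -0.19 and 0.44 in full medium. Rarg, a receptor abundant in skin and precartilage mesenchyme, had 82.4, 93.0 and 86.8 TPM in KO cells, against 85.2, 91.5 and 90.0 TPM in wildtype cells, and these overlap. Its log2 change was -0.02 (SE 0.08, 95% interval -0.19 to 0.14), and 0.16 with median-of-ratios scaling. Rara, the broadly expressed receptor, had 22.5, 22.5 and 21.2 TPM in KO cells, against 25.7, 25.3 and 24.9 TPM in wildtype cells, a log2 change of -0.19 (SE 0.13, 95% interval -0.48 to 0.10). The Rara levels did not overlap, and the change was close to the median of all genes, -0.17. Rarb, the receptor with the repeat in its promoter shown above, had 3.39, 3.76 and 3.94 TPM in KO cells, against 2.51, 2.35 and 2.53 TPM in wildtype cells, a log2 change of 0.44 (SE 0.13) without overlap. Rarb overlaps the gene Top2b on the opposite strand by 4624 bases, and 32.1% of its stretches of 31 bases also occur in Top2b transcripts, so its level is uncertain if reads were assigned without strand, which the sources used here do not state.

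In EBSS, Rarg had 105, 99.8 and 100.03 TPM in labelled KO libraries, against 81.7, 94.9 and 88.7 TPM in labelled wildtype libraries. The log2 change of Rarg was 0.20 (SE 0.08, limma adjusted p = 0.030), against a median of all genes of 0.91, and it turned to -0.76 (adjusted p = 1.87e-06) with median-of-ratios scaling. The Rarg call was lost without labelled wildtype replicate 1 (0.15, adjusted p = 0.12) or labelled KO replicate 1 (0.18, adjusted p = 0.061), 2 (0.22, adjusted p = 0.051) or 3 (0.21, adjusted p = 0.052), so no direction is given for it. Rara had 22.8, 33.1 and 31.3 TPM in labelled KO libraries, against 24.3, 26.7 and 30.1 TPM in labelled wildtype libraries, which overlap. The lowest of these Rara values is labelled KO replicate 1. The log2 change of Rara was 0.09 (SE 0.13, limma adjusted p = 0.55), 0.25 without that library (adjusted p = 0.035), and -0.85 after that scaling (adjusted p = 0.000362). Rarb had 1.81, 1.94 and 1.96 TPM in labelled KO libraries, against 2.76, 1.83 and 2.54 TPM in labelled wildtype libraries, and labelled wildtype replicate 2 lies among the labelled KO values. The log2 change of Rarb was -0.21 (SE 0.13, limma adjusted p = 0.16), -0.33 without labelled wildtype replicate 2 (adjusted p = 0.027), and -0.90 after it (adjusted p = 0.000232).

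Between media, Rarb in the libraries labelled KO was the receptor with a call that held under every alternative in which it was tested, while a filter of a mean of at least 5 TPM left it out. It averaged 1.90 ± 0.0788 TPM in EBSS and 3.69 ± 0.281 TPM in full medium there and fell, with a log2 change of -0.69 (SE 0.13, limma adjusted p = 0.00097). Rara averaged 29.1 ± 5.50 TPM in EBSS and 22.1 ± 0.731 TPM in full medium, a log2 change of 0.37 (SE 0.13, limma adjusted p = 0.036), and Rarg averaged 101.7 ± 3.19 TPM in EBSS and 87.4 ± 5.35 TPM in full medium, a log2 change of 0.22 (SE 0.08, limma adjusted p = 0.032). Both calls were lost with median-of-ratios scaling (Rara 0.23, adjusted p = 0.21, and Rarg 0.08, adjusted p = 0.33). The Rara call was also lost without any one of the full medium libraries, or without labelled KO EBSS replicate 2 or 3, with adjusted p between 0.052 and 0.145. The Rarg call was lost without wildtype full medium replicate 3, KO full medium replicate 1 or 3, or any labelled KO EBSS library, with adjusted p between 0.051 and 0.10. In the libraries labelled wildtype, Rara (0.09, adjusted p = 0.55), Rarb (-0.05, adjusted p = 0.74) and Rarg (-0.01, adjusted p = 0.92) did not pass the limma test, but after that scaling all 3 passed it, at 1.07 for Rara (adjusted p = 6.4e-05), 0.69 for Rarb (adjusted p = 0.0013) and 0.99 for Rarg (adjusted p = 2.3e-07). The summed receptor level was 133 ± 2.43 TPM in labelled KO EBSS libraries, 118 ± 7.91 TPM in those labelled wildtype EBSS, 113 ± 5.63 TPM in KO full medium and 117 ± 2.94 TPM in wildtype full medium libraries.

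**Figure D3:**
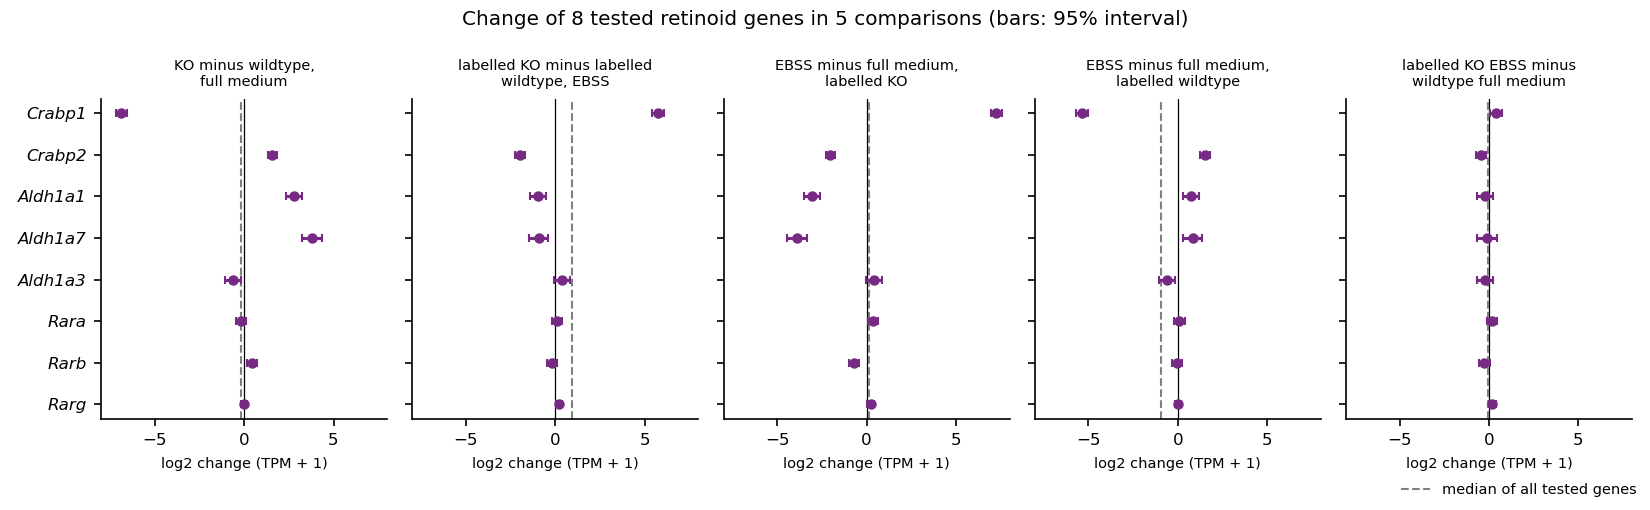
Log2 change of log2(TPM + 1) (x axes) of the 8 tested genes (rows) in 5 comparisons (panels), with 95% intervals and the median of all 12653 tested genes as a dashed line. Crabp1, Crabp2, Aldh1a1 and Aldh1a7 lie on opposite sides of 0 in the KO and labelled KO genotype panels, the receptors lie between -0.69 and 0.44, and the dashed line stands at 0.91 and -0.94 in the 2 panels that set libraries against labelled wildtype EBSS or use it as the treated side.

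Counts over the 8 tested members, Crabp1 and Aldh1a7 included, stand here beside those over all genes. In full medium 4 were higher and 2 lower in KO cells, where 55.9% of all tested genes were called (20.1% higher, 35.8% lower), and since the members were chosen on this comparison nothing is read from it. In EBSS 2 were higher and 3 lower in labelled KO libraries, where 80.5% of genes were called, 71.9% higher and 8.58% lower, and median-of-ratios scaling gave 1 higher and 6 lower members. Between media 3 were higher and 4 lower in EBSS in libraries labelled KO, where 54.2% of genes were called, 33.3% higher and 20.9% lower, and that scaling gave 1 and 4 members. In libraries labelled wildtype 3 were higher and 2 lower in EBSS, where 81.1% of genes were called, 9.25% higher and 71.8% lower, and after scaling 6 members were higher and 1 lower. Without Crabp1 and Aldh1a7 the counts on the deposited scale over the other 6 members were 1 higher and 2 lower in EBSS, 2 and 3 between media in libraries labelled KO, and 2 and 1 in libraries labelled wildtype. The 3 libraries of one group did not overlap with the 3 of the other for 7 of the 8 tested members in full medium (80.2% of all genes), 5 in EBSS (78.2%), 8 between media in libraries labelled KO (67.9%) and 4 in libraries labelled wildtype (84.1%). For the difference of the genotype difference between media, 6 of the 8 lay past the threshold, where 76.7% of genes were called. It contains the full medium comparison on which the members were chosen, so nothing is read from that count either. Median-of-ratios scaling moved the split of higher and lower genes to 3374 and 3417 in the KO comparison in full medium, where it was 2545 and 4533 on the deposited scale. In the labelled KO comparison in EBSS the split was 4378 and 3694 with that scaling and 9097 and 1085 on the deposited scale. For EBSS against full medium it was 3321 and 3265, against 4217 and 2644 on the deposited scale, in libraries labelled KO. In libraries labelled wildtype it was 3884 and 4480, against 1170 and 9090 on the deposited scale. The median log2 change of the members was 0.21 in the KO comparison in full medium, where it was -0.17 over all genes, and -0.06 in the labelled KO comparison in EBSS, where it was 0.91 over all genes.

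Labelled KO EBSS libraries set against wildtype full medium libraries gave 0 of 8 members past the limma threshold, where 0.134% of genes were called. The libraries did not overlap for 4 of the 8 (38.4% of genes). At an unadjusted p under 0.05 there were 3 of the 8 members and 1382 of 12653 genes. The log2 changes were 0.38 for Crabp1 (95% interval 0.06 to 0.70), -0.45 for Crabp2 (-0.72 to -0.18), -0.24 for Aldh1a1 (-0.69 to 0.21), -0.20 for Aldh1a3 (-0.65 to 0.24), -0.11 for Aldh1a7 (-0.65 to 0.44), 0.18 for Rara (-0.11 to 0.47), -0.26 for Rarb (-0.54 to 0.03) and 0.19 for Rarg (0.02 to 0.36). Without both EBSS libraries that stood apart, Rara passed (0.34, adjusted p = 0.026) and 730 genes were called. Labelled wildtype EBSS libraries set against KO full medium libraries gave 1 higher member and 3 lower. Of all tested genes 75.1% were called there, 1467 higher and 8032 lower. The libraries did not overlap for 5 of the 8 members (75.8% of genes). After median-of-ratios scaling 4 members were higher and 2 lower in that comparison. The split over all genes is not given for that scaling, so nothing is read from the scaled count. On the deposited scale Rarb was among the lower members (log2 change -0.49, SE 0.13, limma adjusted p = 0.0054), which became 0.14 (adjusted p = 0.42) with median-of-ratios scaling.

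The wider retinoid pathway around these 9 genes was counted in 5 lists, in a comparison where 35.8% of all tested genes were lower and 20.1% higher in KO cells in full medium. The lists were chosen with earlier results of these data known. Most genes named from them were picked for the size of their change in the same comparison. The p-values of list genes, here and below, therefore describe picked genes and are not separate evidence. More genes fell than rose in each list, as over all genes, and also with median-of-ratios scaling. Of 12 genes of retinol uptake, transport and storage, 5 had enough RNA to be tested, and 4 fell and 1 rose, with a median log2 change of -1.39. Rbp4, the carrier of retinol in blood, had 1.76, 0.114 and 0.868 TPM in KO cells, against 46.3, 44.6 and 49.5 TPM in wildtype cells, and fell with a log2 change of -4.74 (SE 0.81, limma adjusted p = 0.000494). Stra6, the membrane receptor that takes retinol from Rbp4, had 0.200, 0.726 and 0.502 TPM in KO cells, against 3.00, 2.94 and 2.55 TPM in wildtype cells. Stra6 fell by 1.39 on the log2 scale (limma adjusted p = 1.1e-05), without overlap. The 1 gene that rose was Fabp5, a fatty acid binding protein that can also carry retinoic acid, with 203, 216 and 204 TPM in KO cells, against 122, 124 and 118 TPM in wildtype cells (log2 change 0.77, SE 0.27, limma adjusted p = 0.029).

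Few genes of retinol turnover passed the test. Of 21 genes of retinol and retinaldehyde interconversion, 11 were tested, and 2 fell (18.2%), 0 rose and 9 did not pass. Rdh10, the retinol dehydrogenase needed for embryonic retinoic acid synthesis, had 30.0, 41.5 and 43.7 TPM in KO cells, against 77.9, 71.5 and 77.8 TPM in wildtype cells, and fell by 0.98 on the log2 scale (SE 0.23, limma adjusted p = 0.0036). The other was Rdh13 (-0.43, adjusted p = 0.013), whose call was lost with median-of-ratios scaling (-0.25, adjusted p = 0.10). Without both EBSS libraries that stood apart, 1 rose and 5 fell in this list. Of 5 genes of retinoic acid clearance, 1 was tested: Cyp26b1, which breaks retinoic acid down in mesenchyme, had 0.758, 0.969 and 1.06 TPM in KO cells, against 3.32, 4.09 and 3.71 TPM in wildtype cells, and fell by 1.29 (SE 0.12, limma adjusted p = 7.6e-06).

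**Figure D4:**
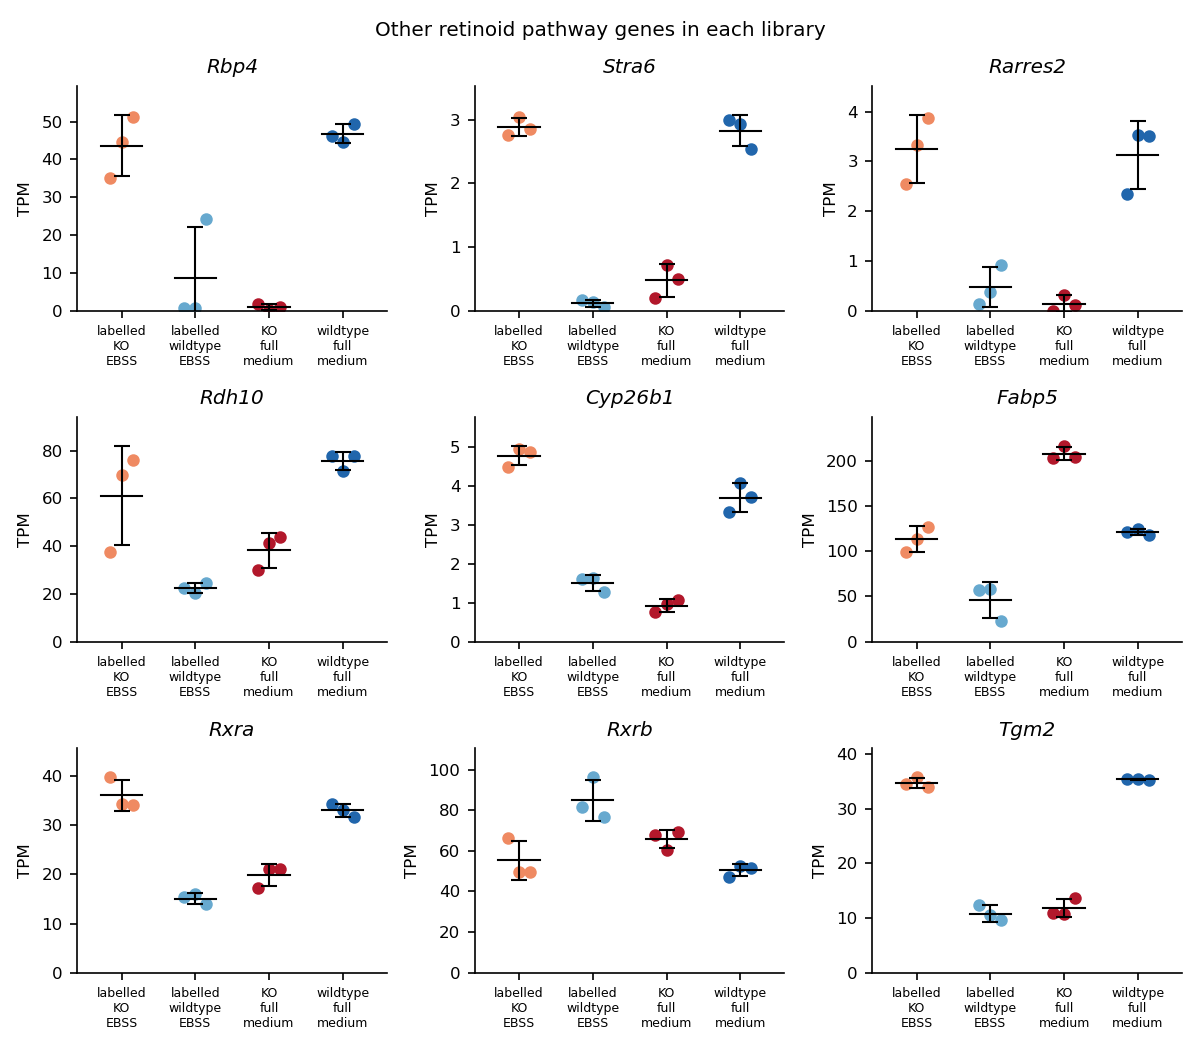
TPM (y axes, linear, from 0) of 9 other genes of the pathway in the 3 libraries of each group (x axes), with the mean and SD (n = 3). Rbp4, Stra6, Cyp26b1, Rxra and Tgm2 are low in KO full medium libraries and high in labelled KO EBSS and wildtype full medium libraries, and labelled wildtype EBSS replicate 3 stands out at 24.2 TPM for Rbp4.

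Among 18 retinoid X receptors and receptor cofactors, 15 were tested, with 2 that rose and 6 that fell in KO cells (40.0%, near the share over all genes). Rxra, a DNA-binding partner of the retinoic acid receptors, had 17.2, 21.2 and 21.1 TPM in KO cells, against 34.3, 33.2 and 31.6 TPM in wildtype cells, and fell by 0.71 on the log2 scale (SE 0.11, limma adjusted p = 0.000205). The corepressor Nrip1 fell as well (log2 change -0.92, limma adjusted p = 0.000211). Rxrb, another retinoid X receptor, was higher in KO cells, at 67.6, 60.7 and 69.1 TPM, against 47.0, 52.6 and 51.5 TPM in wildtype cells. The Rxrb levels did not overlap, and its log2 change was 0.56 with median-of-ratios scaling (limma adjusted p = 0.0024). Of 30 genes known as retinoic acid targets, 21 were tested, with 1 that rose and 10 that fell (47.6%), and a median log2 change of -0.61 against -0.17 for all genes. With median-of-ratios scaling 2 rose, Meis2 among them (0.82, limma adjusted p = 0.0032), and 10 fell. The list leaves out the members, so Rarb, itself a target as stated above, is not in these counts. Its log2 change was 0.44. Tgm2, a transglutaminase induced by retinoic acid in many cell types, had 10.8, 10.8 and 13.7 TPM in KO cells, against 35.3, 35.4 and 35.1 TPM in wildtype cells, and fell by 1.51 (SE 0.12, limma adjusted p = 1.5e-06). Rarres2, the precursor of chemerin, had 0, 0.321 and 0.112 TPM in KO cells, against 2.34, 3.52 and 3.51 TPM in wildtype cells, and fell by 1.85 (limma adjusted p = 3.0e-05). Without both EBSS libraries that stood apart, a setting added after seeing the data, 4 target genes rose and 14 fell. More genes were called under it in other lists too, with 4 and 6 of the other aldehyde dehydrogenases, against 2 and 4 with all libraries. The share over all genes is not given for this setting, so nothing is read from the larger count. The target list shares genes with the others, Stra6, Cyp26b1 and Nrip1 among them, so the lists are not independent of each other.

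The relatives of the members outside the retinoid pathway went both ways. Of 16 other aldehyde dehydrogenases, 12 were tested, with 2 that rose (16.7%) and 4 that fell (33.3%) in KO cells. These shares are near those over all genes, 20.1% higher and 35.8% lower. Aldh2, the mitochondrial enzyme that clears acetaldehyde, had 86.4, 90.4 and 88.2 TPM in KO cells, against 182, 199 and 196 TPM in wildtype cells, and fell by 1.11 on the log2 scale (SE 0.09, limma adjusted p = 2.4e-06). Aldh6a1, of valine breakdown, rose by 1.19 (limma adjusted p = 0.002), at 8.57, 12.3 and 12.8 TPM in KO cells, against 4.27, 4.13 and 4.44 TPM in wildtype cells. The third was Aldh1l1 (-0.95, adjusted p = 0.047), whose call was lost after scaling (-0.79, adjusted p = 0.17). Of 14 other intracellular lipid binding proteins, 13 were in the table and 6 were tested, with 3 that rose and 1 that fell. Besides Fabp5, already given, Fabp7, a brain fatty acid binding protein, rose by 1.37 (SE 0.21, limma adjusted p = 0.000195). It was low throughout, at 3.16, 2.16 and 1.70 TPM in KO cells, against 0, 0.358 and 0.518 TPM in wildtype cells. Fabp7 reached 1 TPM in KO full medium libraries only, so it was tested only through the group where it is high. Without both EBSS libraries that stood apart, 4 other aldehyde dehydrogenases rose and 6 fell, and 4 lipid binding proteins rose and 1 fell.

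Between media in the libraries labelled KO, the transport and target lists had more genes higher than lower in EBSS, as over all genes. Of the 5 tested transport genes 4 rose and 1 fell, and of the 21 target genes 12 rose and 1 fell. Over all tested genes 33.3% were higher and 20.9% lower. On the scaled values the target counts became 10 and 1, and the transport counts stayed at 4 and 1. The 14 fibroblast markers moved the same way, with 12 higher and 1 lower. Whether the 2 lists differ from that wider shift was not tested. Rbp4 had 35.2, 44.5 and 51.1 TPM in EBSS, against 1.76, 0.114 and 0.868 TPM in full medium (log2 change 4.62, SE 0.81, limma adjusted p = 0.000612). Cyp26b1 had 4.50, 4.96 and 4.88 TPM in EBSS, against 0.758, 0.969 and 1.06 TPM in full medium (log2 change 1.58, SE 0.12, limma adjusted p = 1.9e-06). The levels in labelled KO EBSS libraries lie near those of wildtype cells in full medium, as for Crabp1 and Crabp2. Between those 2 groups 0 of 64 tested genes of the 7 lists passed the limma test, where 0.134% of all tested genes did. At an unadjusted p under 0.05 there were 3 of the 64, and 1382 of all 12653 tested genes. Without both EBSS libraries that stood apart, the lipid binding protein gene Fabp3 passed (0.36, limma adjusted p = 0.032).

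Within EBSS and within the libraries labelled wildtype, the list counts depended on the scaling. Of the 21 tested target genes, 15 were higher and 1 lower in labelled KO than in labelled wildtype EBSS libraries, and 8 and 1 with median-of-ratios scaling. For the transport genes it was 5 higher and 0 lower, and 2 and 0 with that scaling. For the 11 tested interconversion genes it was 8 higher and 0 lower, and 2 and 4 with that scaling. Over all tested genes 71.9% were higher and 8.58% lower in this comparison on the deposited scale. The target and interconversion counts on that scale lie near this share higher, so nothing is read from them. Stra6 held under both, with 2.76, 3.04 and 2.86 TPM in labelled KO libraries, against 0.168, 0.130 and 0.0596 TPM in labelled wildtype libraries (log2 change 1.80, SE 0.14, limma adjusted p = 5.2e-07, and 1.51 after scaling). Rbp4 had 0.832, 0.699 and 24.2 TPM in labelled wildtype EBSS libraries, and the high one is replicate 3, the library with the most liver marker RNA, whose part in the Rbp4 level was not tested. Without both libraries that stood apart, the log2 change of Rbp4 between labelled KO and labelled wildtype in EBSS was 4.79 (adjusted p = 5.8e-08), and with all libraries 3.36 (SE 0.81, limma adjusted p = 0.0025).

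Marker lists of other cell types differed between KO and wildtype cells in full medium, but not all in the same direction. The 7 skeletal muscle markers summed to 52.9 to 66.0 TPM in KO libraries, mainly Acta1, against 1.77 to 2.17 TPM in wildtype libraries, with 2 of 7 at 1 TPM or more in KO cells and Myf5 at 0. The 6 macrophage markers summed to 63.8 to 68.7 TPM in KO libraries, mainly Cd68, against 28.6 to 29.7 TPM in wildtype libraries, where Adgre1 was at 0. Of the 3 macrophage markers tested, 1 was called higher and 1 lower. The 8 epithelial markers summed to 248 to 284 TPM in KO libraries, mainly Krt19, against 160 to 174 TPM in wildtype libraries. The 6 endothelial markers summed to 0.894 to 1.21 TPM in KO libraries, against 3.32 to 3.57 TPM in wildtype libraries. The 6 adipocyte markers summed to 56.1 to 68.6 TPM, against 55.5 to 68.8 TPM. Neural crest, glial and neuronal markers summed to 26.7 to 30.5 TPM, against 15.5 to 16.2 TPM, with 0 of 3 tested called. Of the 14 fibroblast markers 11 were called lower and 0 higher. The part of any of these in the differences of the retinoid genes was not tested.

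The genes whose pattern over the 12 libraries was most like that of a member are named as a description, by Pearson's r of log2(TPM + 1). The 12 libraries fall into 4 groups with large differences, so r mainly reflects the group means. For Crabp1 they were Ly6e (r = 0.999), Sgce (0.996) and Lamb1 (0.995), and for Crabp2 Rps2 (0.980), F11r (0.974) and Atp6v0e (0.972). Aldh1a1 was most like Lamp1 (0.995), Aldh1a7 (0.992) and Coro2a (0.988), and Aldh1a7 most like Lamp1 (0.994), Neu1 (0.992) and Aldh1a1 (0.992). Aldh1a3 was closest to Kng1 (0.968), Rarb to Rpa1 (0.935), Rarg to Arap1 (0.917) and Rara to Atn1 (0.840).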

How the data were processed

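Poly(A) RNA of 12 mouse embryonic fibroblast libraries was prepared with an Illumina TruSeq kit, per the labels' protocols. The authors deposited 1 table of TPM per gene symbol, with 25117 symbols. Per the submitters' processing notes, Salmon and the build mm10 were used, while the sources used here give no Salmon version, annotation, strand setting or read depth. Depth cannot be read from TPM, so no counting interval is given. Each library summed to 92.3% to 99.4% of 1000000 TPM. Sample titles gave the groups and replicate numbers.

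The 12653 symbols with at least 1 TPM in at least 3 libraries were tested, 8 of the 9 members among them. Values were transformed to log2(TPM + 1). In limma 3.58.1 (R 4.3.3) 1 model of 4 group means, fitted on all 12 libraries with a variance trend and moderated variances, gave the 6 pairwise contrasts and the interaction of genotype and medium. Members have no p-value in the full medium comparison or in the interaction that contains it. Two-sided p-values were adjusted over all tested genes (Benjamini-Hochberg), and an adjusted p below 0.05 counted as a call. Fold changes on the log2(TPM + 1) scale understate the change of low genes. The script was tested on simulated data with changed genes of known size. Python 3.11.15 with matplotlib 3.10.9 drew the figures.

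The members and the gene lists were chosen with earlier results of these data known, and the wider lists hold textbook genes of the pathway, including genes of more than 1 list. From each wider list, up to 3 called genes with the largest change and a mean of at least 2 TPM in the higher group are named in a comparison. For likeness, the 3 genes with the highest r and a mean of at least 5 TPM in the highest group were taken, predicted genes left out. The highest gene of a marker list is named. Fabp5 is named in the transport list because the lipid binding list named it. Rxrb is named because it is shown in 1 plot. Meis2 and Fabp3 are named because they went against most genes of the lists. Some genes that this rule names are not reported here. Named genes of the comparison of media and of EBSS libraries are given in part.

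Same-numbered libraries of different groups did not deviate together: the correlation of their deviations from the group means was -0.073 to 0.079 over 18 pairs, and 0 pairs were over 0.1, so the numbers were not used as pairs. Alternatives were other pseudocounts, filters, a median-of-ratios scaling of TPM over 11371 genes, only the groups compared, a replicate block and leaving out each library. Leaving out both EBSS libraries that stood apart was added after seeing the data. Gene positions and transcripts are from GENCODE vM21 (GRCm38) and promoters from RefSeq (GRCm38.p6). The authors may have used another annotation. Protein sequences were not used here.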

Additional observations from a re-analysis of the deposited data

Results flagged for a closer look

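For 4 genes all 3 labelled KO libraries lay on one side of all 3 labelled wildtype libraries in EBSS and on the other side in full medium. The difference between the KO and wildtype labels in EBSS minus that in full medium was 12.62 on the log2 scale for Crabp1 and -3.57 for Crabp2. It was -3.81 for Aldh1a1 and -4.71 for Aldh1a7. The median over all genes was 1.06. These differences were not tested, because they contain the full medium comparison on which the genes were chosen. The labels of the EBSS libraries go against Rbbp5, as given above, and all of these signs rest on the labels as deposited.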

How the results depend on the processing

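Of the values compared under the alternatives, 24 single-gene values turned their sign. A turn of sign was not defined for counts. Of these, 11 moved and 267 stayed near the main value. The calls of Crabp2 and Aldh1a1 between genotype labels in EBSS and between media held under every alternative run. Labelled KO EBSS against wildtype full medium gave 17 called genes, and 32 without a filter, 249 with only the 6 libraries compared, 8 to 219 with single libraries left out (219 without labelled wildtype EBSS replicate 3, 8 without wildtype full medium replicate 1 or 3 or labelled KO EBSS replicate 3, 9 without wildtype full medium replicate 2, 10 without labelled KO EBSS replicate 2) and 730 genes with 1 member, Rara, without both EBSS libraries that stood apart. With the replicate number as a block, called genes were 7 in that comparison, 6922 (7078 without the block) for KO in full medium, 10107 (10182) for labelled KO in EBSS, 6702 (6861) and 10191 (10260) for EBSS in libraries labelled KO and wildtype, 9432 (9499) for labelled wildtype EBSS against KO full medium and 9626 (9710) for the interaction. The block changed no count of members called.

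With median-of-ratios scaling the log2 change turned to 0.16 for Rarg for KO in full medium, to -0.85 for Rara and -0.76 for Rarg for labelled KO in EBSS, to 0.69 for Rarb and 0.99 for Rarg for EBSS in libraries labelled wildtype, to 0.78 for Crabp2 and 0.14 for Rarb for labelled wildtype EBSS against KO full medium, and to -0.84 for Rara and -0.92 for Rarg in the interaction. That scaling moved the median of all genes to 0.01, 0.09, -0.09 and -0.05 in these pairwise comparisons and to 0.05 in the interaction. In labelled wildtype EBSS against KO full medium, Aldh1a3 was -0.011 with a pseudocount of 0.1 and -0.19 without both EBSS libraries that stood apart. With single libraries left out the range was -0.19 to 0.19 for Aldh1a3, -0.036 to 0.071 for Rarg and -0.13 to 0.097 for Crabp2 there. It was -0.061 to 0.046 for Rarg and -0.13 to 0.074 for Rarb for EBSS in libraries labelled wildtype, -0.070 to 0.016 for Rarg for KO in full medium, -0.011 to 0.25 for Rara for labelled KO in EBSS, and -0.34 to 0.051 for Aldh1a7 for labelled KO EBSS against wildtype full medium. The cause of the changes with scaling, single libraries, filter and pseudocount was not tested. The depth behind the low levels of Aldh1a2 and Aldh1a3 is unknown.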
